A study of Mus musculus with 4 samples.

Results

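Mouse colonic epithelial cells under chemically induced colitis were examined for the genes of the unfolded protein response and of protein folding in the endoplasmic reticulum (ER). The set was 35 genes named by symbol: 11 chaperones and cochaperones, 6 enzymes of disulfide bond formation, 9 stress sensors and transcription factors, 4 targets or feedback genes of the PERK-ATF4 arm and 5 genes of ER-associated degradation. All 35 symbols were found among the 31227 gene rows of the count table. Ddit3 had a second row for a short gene model, with at most 1 count per library, which was not tested. All 35 genes passed the filter on low counts.

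RNA was sequenced from colonic epithelial cells of 2 genotypes, wild type (WT, replicates 1 and 3) and mice with an epithelial knockout of Smad4 (Smad4 KO, replicates 1 and 2). Smad4 is the shared transcriptional partner of the receptor-activated Smads downstream of TGF-β and BMP. All mice were 8 to 10 weeks old and had drunk 3.5% dextran sulfate sodium (DSS), which damages the lining of the colon, for 5 days. Plain water followed until death on day 7, while the labels give the time as 5 days. The sources used here do not give the promoter or Cre line behind the deletion. Mice without DSS were not analysed here, so each comparison sets the genotypes side by side under DSS. Whether libraries of 1 genotype are from different mice is not in the labels, so a p-value here covers the spread from library to library, which can be technical. In bulk RNA, fewer cells of a type and less RNA per cell cannot be told apart.

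Secretory cells load the ER with newly made proteins, and unfolded protein there is sensed by IRE1, PERK and ATF6. IRE1 (Ern1, and Ern2 in mucus-making gut epithelium) splices Xbp1 messenger RNA. PERK (Eif2ak3) phosphorylates eIF2α, which slows translation while favouring that of ATF4, and ATF6 is cut free from the membrane. XBP1 and ATF6 drive chaperone, folding and degradation genes, whereas ATF4 drives amino acid supply and feedback genes and is shared with kinases that sense other stresses. Xbp1 splicing, ATF4 translation and ATF6 cleavage cannot be seen in gene counts.

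Total counts were 56018009 and 42577920 in WT and 61260099 and 67927291 in KO, so a single count stood for 0.0150 to 0.0229 CPM, that is, counts per scaled library of 1e+06. Smad4 itself stood at 152 and 179.8 CPM in the WT libraries and at 51.5 and 41.1 CPM in the KO libraries. That is a 3.59-fold fall (a log2 fold change of -1.84, SE 0.143, edgeR adjusted p = 0.00163), with RNA still detected in both KO libraries. Of 15838 tested genes, 1398 rose and 1014 fell in the KO libraries by edgeR's quasi-likelihood test at an adjusted p under 0.05. The 9 epithelial markers summed to 16177 to 16536 CPM in WT and to 16332 and 16879 CPM in KO (4 rose and 1 fell). All 6 neutrophil markers rose, 4 of them also with any 1 library left out, and their sum went from 129 and 103 CPM to 437 and 426 CPM. Most of that sum was Ly6g, and without it the sum went from 12.3 and 9.75 CPM to 108 and 107 CPM. Of 6 macrophage markers 2 rose (sum 11.9 and 10.4 CPM in WT, 35.8 and 33.4 CPM in KO). One T cell marker of 6 rose (sum 3.37 and 4.45 CPM in WT, 9.53 and 10.9 CPM in KO), as did 1 fibroblast marker of 6 (28.4 and 27.7 CPM in WT, 35.7 and 33.8 CPM in KO). The 4 B cell markers summed to at most 0.917 CPM in any library, and the 4 endothelial and 4 smooth muscle markers had none past the test. The part of these cells in the results that follow was not tested.

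Across the 35 genes, 4 rose in the KO libraries (Ero1l, Atf4, Chac1 and Ppp1r15a), 1 fell (Creb3l1) and 30 did not pass the test. Among all tested genes, 8.83% rose and 6.40% fell, so the counts of 4 risen and 1 fallen among 35 were near that background. The median log2 fold change was 0.13, beside 0.01 for all tested genes, and 24 of the 35 values were above 0. Both KO libraries lay above both WT libraries for 17 genes and below them for 5, beside 31.0% and 28.4% of all tested genes, and the genotypes overlapped for the remaining 13. At an unadjusted p under 0.05, 9 genes were higher and 2 lower, 11 of 35 in all, which is near the 29.9% of all tested genes past that limit (16.6% higher and 13.3% lower). DESeq2 called 7 risen and 2 fallen, beside 12.1% and 9.62% of all tested genes, and limma-voom called 5 and 2, beside 9.52% and 7.15%. The count of risen genes moved with the libraries: it was 5 without WT replicate 1, 4 without WT replicate 3 and 2 without either KO replicate. The 3 calls that held when any 1 library was left out were those of Chac1, Ero1l and Creb3l1.

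**Figure D1:**
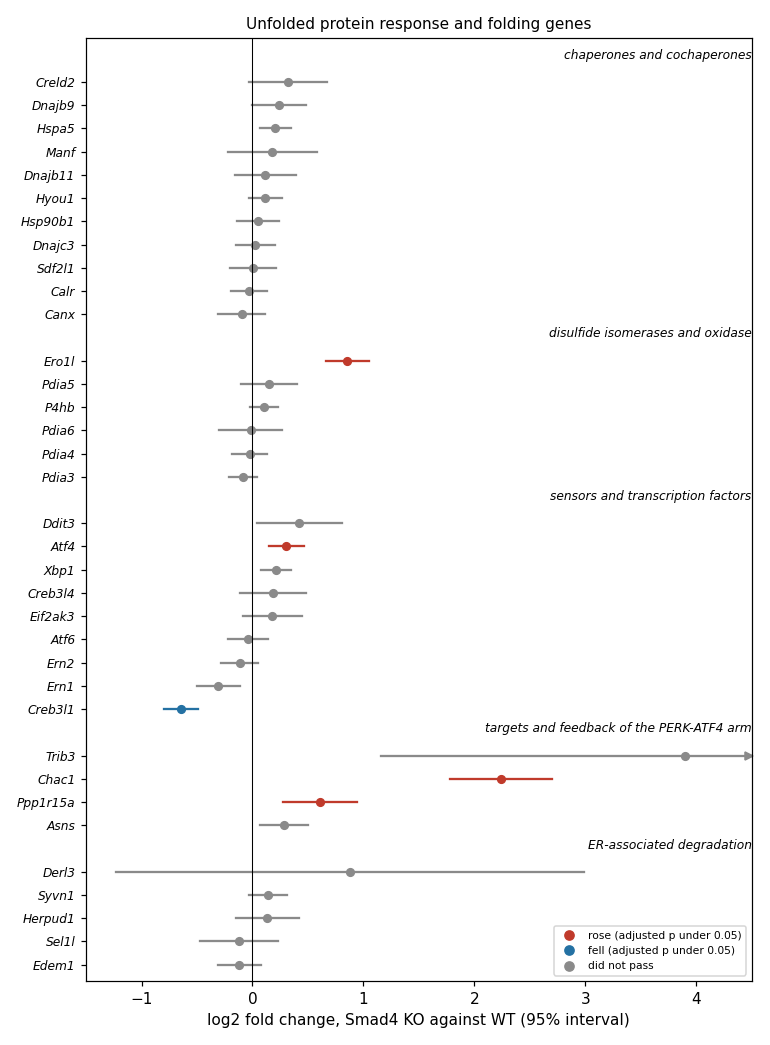
Log2 fold change of each of the 35 genes, Smad4 KO against WT, with its 95% confidence interval, grouped by role. Apart from Ero1l, the chaperones and disulfide enzymes lie between -0.10 and 0.32. The 4 targets and feedback genes of the PERK-ATF4 arm lie to the right of 0. They run from Asns at 0.28, within the chaperone range, to Trib3 at 3.90, which did not pass, with Chac1 at 2.24.

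None of the 11 ER chaperones passed the test, beside 8.83% risen and 6.40% fallen among all tested genes. Of the 11 log2 fold changes, 9 were above 0. Both KO libraries lay above both WT libraries for 4 chaperones and below them for 0, beside 31.0% and 28.4% of all tested genes. BiP (Hspa5), the main ER Hsp70 and the usual gauge of the response, stood at 519 and 487 CPM in WT and at 589.5 and 572 CPM in KO. Both KO libraries were above both WT libraries, by 1.15-fold, which did not pass (a log2 fold change of 0.21, SE 0.0565, edgeR adjusted p = 0.0705). It passed with DESeq2 (adjusted p = 0.0300) and, by edgeR, without WT replicate 1 (adjusted p = 0.0383). GRP94 (Hsp90b1), the ER Hsp90, read 644 and 566 CPM in WT against 630.2 and 622 CPM in KO. The KO values of Hsp90b1 thus fell inside the WT range. The lectin chaperones calreticulin and calnexin, which hold glycoproteins during folding, overlapped as well: Calr read 964 and 874 CPM in WT against 916 and 878 CPM in KO, and Canx read 357 and 414 CPM against 359.7 and 361 CPM.

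Hyou1, an Hsp70-like partner of BiP, was 147 and 148 CPM in WT and 159 and 159.6 CPM in KO (edgeR adjusted p = 0.268). Of the BiP cochaperones, Dnajb9 read 37.3 and 37.7 CPM in WT and 46.6 and 41.8 CPM in KO (edgeR adjusted p = 0.174). Neither of these genes overlapped between genotypes, and neither passed. Dnajb11 (183 and 148 CPM in WT, 179.9 and 178 CPM in KO), Dnajc3 (169 and 176 CPM, then 168 and 183 CPM) and Sdf2l1 (47.4 and 44.7 CPM, then 46.9 and 45.6 CPM) overlapped. The stress-induced secreted factors Creld2 and Manf were lowest in WT replicate 3. Creld2 read 53.4 and 41.3 CPM in WT and 56.8 and 61.4 CPM in KO (log2 fold change 0.32, edgeR adjusted p = 0.205; 0.0350 without WT replicate 1). Manf read 125 and 92.9 CPM in WT and 114 and 132 CPM in KO.

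The chaperones' log2 fold changes ran from -0.10 to 0.32, with a median of 0.11. Their 95% confidence intervals lay between -0.31 and 0.67, that is, between 1.24-fold lower and 1.59-fold higher. By edgeR 1 chaperone had an unadjusted p under 0.05, beside 29.9% of all tested genes. DESeq2 called 1, Hspa5, and limma-voom called 0, beside 21.8% and 16.7% of all tested genes.

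Chaperone promoters carry a known binding element of ATF6 and XBP1, the ER stress response element (ERSE), which reads CCAAT, then 9 bases of any kind, then CCACG. It was searched for on both strands in the 250 bases before the gene start in the RefSeq promoter table (build GRCm38.p6), in which 30 of the 35 genes had an entry. Atf6, Creb3l1, Ern2, Hyou1 and Manf had none. ERSE letters were found in 37 of 32851 promoters (0.113%), and 9 of the 35 genes were among them: Calr, Canx, Creld2, Derl3, Dnajc3, Hsp90b1, Hspa5, Pdia6 and Syvn1. Windows of Creld2, Derl3, Dnajc3, Hspa5 and Syvn1 are not shown. The windows below are examples of this element, the known link of ATF6 and XBP1 to chaperone genes. Each is read 5′ to 3′ on the strand of the gene, with the matched element in capitals. Hsp90b1 (chr10:86705608-86705686, minus strand) has a match 212 to 194 bases before its start, and a second match, not shown, in the opposite orientation at 107 to 89 bases. Canx (chr11:50325770-50325848, minus strand) has its match at 145 to 127 bases and Pdia6 (chr12:17266461-17266539, plus strand) at 98 to 80 bases. In Calr (chr8:84847045-84847123, minus strand) the element lies in the opposite orientation, 162 to 144 bases before the start.
Hsp90b1: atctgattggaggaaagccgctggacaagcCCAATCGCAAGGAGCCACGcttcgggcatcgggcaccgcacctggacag
Canx: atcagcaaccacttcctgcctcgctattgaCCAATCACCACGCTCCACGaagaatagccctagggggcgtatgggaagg
Pdia6: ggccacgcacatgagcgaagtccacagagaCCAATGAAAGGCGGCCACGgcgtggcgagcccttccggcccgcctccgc
Calr: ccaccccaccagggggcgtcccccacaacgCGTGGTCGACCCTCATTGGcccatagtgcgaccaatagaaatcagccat

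None of the 9 genes with ERSE letters rose or fell by edgeR, beside 8.83% and 6.40% of all tested genes. Their median log2 fold change was 0.05, and 6 of the 9 values were above 0. Both KO libraries lay above both WT libraries for 4 genes and below them for 0, beside 31.0% and 28.4% of all tested genes. The 4 were Hspa5, Creld2, Syvn1 and Derl3, whose windows are not shown. The genotypes overlapped for Hsp90b1, Canx, Pdia6 and Calr, whose windows are shown. Of the 9, only Hspa5 had an unadjusted p under 0.05 (29.9% of all tested genes), and DESeq2 called it. Among 12 other tested genes with these letters, 1 rose and 0 fell, beside 8.83% and 6.40%. ERSE-II, which reads ATTGG, then 1 base of any kind, then CCACG, was found in 10 promoters (0.0304%), with Herpud1 among them. The UPRE, written TGACGTGG or TGACGTGA, was found in 300 (0.913%), with Hspa5 among them. A letter match is a description and does not show that a factor was bound.

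In the disulfide group, 1 of 6 genes rose, the oxidase that recharges the isomerases, beside 8.83% of all tested genes. The isomerases did not pass. Protein disulfide isomerases form and shuffle disulfide bonds in folding proteins, and Ero1l (ERO1α) passes their electrons on to oxygen. Ero1l (ENSMUSG00000021831, GRCm38 chr14:45283087-45318771, minus strand) stood at 64.9 and 67.4 CPM in WT and at 125 and 114 CPM in KO. The genotypes were far apart for this gene, with means of 66.1 ± 1.79 and 119.6 ± 7.49 CPM (SD, n = 2 each). It rose 1.81-fold (a log2 fold change of 0.86, SE 0.0771, edgeR adjusted p = 0.00250).

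The 5 isomerases did not pass. Pdia3, which works with calnexin and calreticulin, read 719.9 and 699 CPM in WT and 683 and 656 CPM in KO, with both KO values lower (edgeR adjusted p = 0.339). P4hb, the founding isomerase and a subunit of collagen prolyl hydroxylase, read 858 and 902 CPM in WT and 943 and 948 CPM in KO, with both KO values higher (edgeR adjusted p = 0.230). Pdia4 (164 and 156 CPM in WT, 157 and 157 CPM in KO), Pdia5 (56.5 and 51.9 CPM, then 56.2 and 63.9 CPM) and Pdia6 (279 and 223 CPM, then 248 and 249 CPM) overlapped. Their log2 fold changes were -0.02, 0.15 and -0.02. The median of all 6 genes of the disulfide group, Ero1l included, was 0.04.

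**Figure D2:**
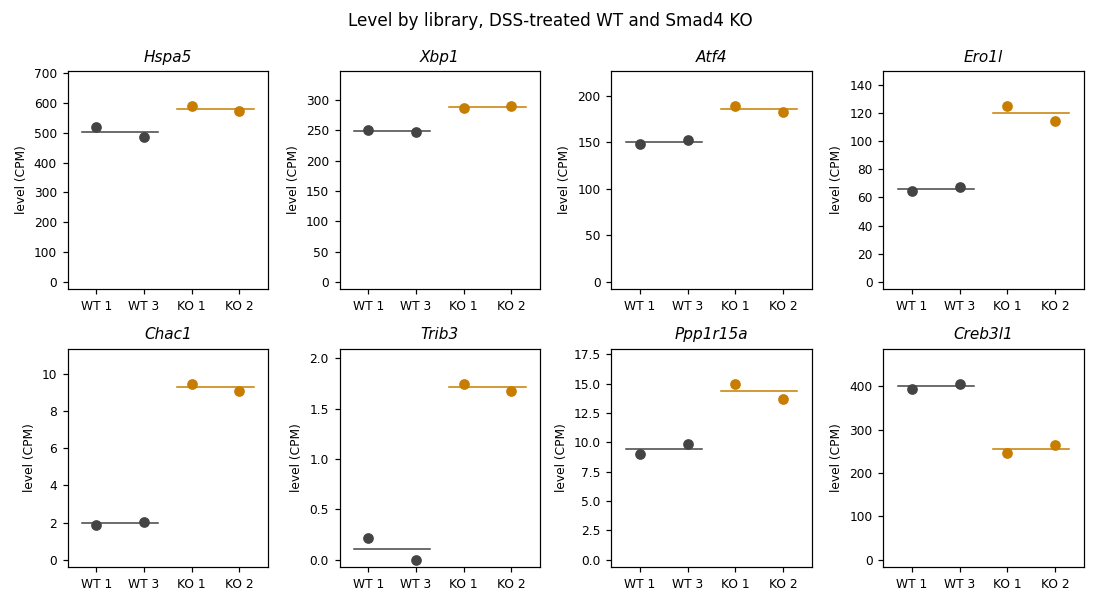
CPM of selected genes in each of the 2 WT and 2 Smad4 KO libraries, 1 panel per gene with a linear axis from near 0 and a line at each genotype's mean. For Hspa5, Xbp1, Atf4, Ero1l, Chac1, Trib3 and Ppp1r15a both KO libraries lie above both WT libraries, and for Creb3l1 both lie below. Among all tested genes 31.0% lie above and 28.4% below in this way. Hspa5, Xbp1 and Trib3 did not pass the edgeR test.

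Among the 9 sensors and transcription factors 1 rose (Atf4) and 1 fell (Creb3l1), near the 8.83% and 6.40% of all tested genes. The other 7 did not pass. Atf4, the transcription factor of the PERK arm, whose control is mainly translational, was also higher as RNA. Atf4 (ENSMUSG00000042406, GRCm38 chr15:80255184-80257541, plus strand) read 148 and 153 CPM in WT and 189 and 182 CPM in KO. The libraries did not overlap, and the means were 150.3 ± 3.53 and 186 ± 4.67 CPM (SD, n = 2 each). The rise was 1.24-fold (a log2 fold change of 0.30, SE 0.0619, edgeR adjusted p = 0.0312). This call was lost with library totals in place of TMM scaling (edgeR adjusted p = 0.0575) and without WT replicate 1 (0.0582), KO replicate 1 (0.204) or KO replicate 2 (0.168).

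Creb3l1 (OASIS), an ER-membrane transcription factor of the CREB3 family that is cut and released like ATF6, takes part in goblet cell maturation. Creb3l1 (ENSMUSG00000027230, GRCm38 chr2:91982328-92024502, minus strand) read 393 and 406 CPM in WT and 247 and 265 CPM in KO. Both KO libraries were well below both WT libraries, with means of 399.6 ± 8.71 and 256 ± 12.5 CPM (SD, n = 2 each). The fall was 1.56-fold, a log2 fold change of -0.64 with an SE of 0.0618 (edgeR adjusted p = 0.00304). Creb3l4, its relative, went from 31.8 and 31.0 CPM to 38.8 and 32.5 CPM, which missed the threshold (edgeR adjusted p = 0.371). Goblet cell markers moved in both directions beside Creb3l1. Of 10 markers, Muc2 and Spdef rose 1.56-fold and 1.57-fold, and Fcgbp, Clca1, Rep15 and Atoh1 fell 1.98-fold, 1.88-fold, 1.82-fold and 1.39-fold. The calls of Spdef and Atoh1 were lost without either KO replicate (edgeR adjusted p up to 0.0701 and 0.169). The sum of the 10 markers was 26458 and 26407 CPM in WT against 25391 and 25398 CPM in KO, and its part in the Creb3l1 result was not tested.

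None of the 3 classical sensors passed the test, nor did Xbp1. Ern1 read 113 and 124 CPM in WT and 96.8 and 94.8 CPM in KO, 1.24-fold lower without overlap (a log2 fold change of -0.31, SE 0.0766, edgeR adjusted p = 0.0554). It sat close to the threshold: limma-voom gave an adjusted p of 0.0467 and DESeq2 0.00923, and edgeR gave 0.0403 with library totals, 0.0493 with no filter and 0.0287 without WT replicate 1. Its relative Ern2 read 138 and 138 CPM in WT and 124 and 131 CPM in KO (edgeR adjusted p = 0.313). Atf6 overlapped at 78.9 and 82.9 CPM in WT against 80.5 and 76.8 CPM in KO. Eif2ak3 read 68.0 and 72.9 CPM in WT and 86.7 and 72.9 CPM in KO, so that 1 KO library came level with the higher WT library.

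Xbp1, the target of IRE1 splicing and itself induced by ATF6, read 251 and 247 CPM in WT and 287 and 290.2 CPM in KO. The libraries were apart by 1.16-fold, and the difference did not pass (a log2 fold change of 0.21, SE 0.0541, edgeR adjusted p = 0.0596). It passed with a filter of 1 CPM in 2 libraries (edgeR adjusted p = 0.0494), with DESeq2 (0.0155) and with limma-voom (0.0444). Ddit3 (CHOP), the late-stage transcription factor of the PERK arm, was low, at 8.52 and 7.82 CPM in WT and 11.8 and 10.1 CPM in KO. It was higher in both KO libraries and did not pass (log2 fold change 0.42, 95% interval 0.04 to 0.81, edgeR adjusted p = 0.135). Ddit3 shares 68 exon bases with Mars on the opposite strand, and without a stated strand reads from the pair cannot be told apart there.

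All 4 targets and feedback genes of the PERK-ATF4 arm were higher in both KO libraries than in both WT libraries, beside 31.0% of all tested genes. Of the 4, 2 passed as risen, beside 8.83% of all tested genes. Chac1, a γ-glutamylcyclotransferase that breaks down glutathione, made the largest move of the genes that passed. Chac1 (ENSMUSG00000027313, GRCm38 chr2:119351229-119354381, plus strand) read 1.89 and 2.04 CPM in WT and 9.47 and 9.07 CPM in KO, from 107 and 89 counts and 569 and 605 counts. The means of 1.96 ± 0.109 and 9.27 ± 0.281 CPM (SD, n = 2 each) were well apart. It rose 4.72-fold (a log2 fold change of 2.24, SE 0.182, edgeR adjusted p = 0.00185).

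Ppp1r15a (GADD34), the inducible phosphatase subunit that reverses eIF2α phosphorylation, rose less. Ppp1r15a (ENSMUSG00000040435, GRCm38 chr7:45522916-45526268, minus strand) read 8.99 and 9.84 CPM in WT and 15.0 and 13.7 CPM in KO. The means were 9.42 ± 0.599 and 14.4 ± 0.923 CPM (SD, n = 2 each), with no overlap. The rise was 1.52-fold (a log2 fold change of 0.61, SE 0.131, edgeR adjusted p = 0.0374), and leaving out any 1 library ended the call (adjusted p from 0.0568 to 0.209).

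Trib3, a pseudokinase that restrains ATF4 and CHOP, was near the detection limit in WT. It had 12 counts in WT replicate 1, 0 in WT replicate 3 and 105 and 112 in the KO libraries, that is, 0.212, 0, 1.75 and 1.68 CPM. At the depth of WT replicate 3, a count of 0 allows up to 0.0688 CPM, for counting error only. The KO libraries were clearly apart, but the spread between the WT libraries left an SE of 1.08 on a log2 fold change of 3.90, which did not pass (95% interval 1.16 to 6.64, edgeR adjusted p = 0.0742). It passed under 5 of the 11 alternatives, among them DESeq2 (adjusted p = 0.00308) and edgeR without WT replicate 3 (0.0297, log2 fold change 3.01). Without WT replicate 1 the lone WT library held no Trib3 count, so the value of that fit is no measure of size. Asns, asparagine synthetase, read 50.7 and 53.8 CPM in WT and 60.9 and 66.4 CPM in KO, a 1.22-fold difference that did not pass (edgeR adjusted p = 0.0886).

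The composite element of ATF4 and C/EBP partners has the core TTNCATCA, which was found on either strand in 1134 of 32851 promoters (3.45%). Asns, Chac1 and Herpud1 held it. Chac1 (chr2:119351019-119351086, plus strand) and Herpud1 (chr8:94386287-94386354, plus strand) are shown because they share the same 8 letters while only the first passed the test. The core, in capitals, lies 193 to 186 bases before the start of Chac1 and 112 to 105 bases before that of Herpud1.
Chac1: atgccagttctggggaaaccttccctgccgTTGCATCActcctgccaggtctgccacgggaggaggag
Herpud1: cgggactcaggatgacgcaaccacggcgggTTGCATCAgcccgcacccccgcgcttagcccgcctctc

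Chac1 rose 4.72-fold, while Herpud1 differed by 1.10-fold and did not pass (edgeR adjusted p = 0.498), and the difference between the 2 genes was not tested. Of the 292 other tested genes with the core, 42 rose (14.4%) and 17 fell (5.82%), beside 8.83% and 6.40% of all tested genes. Ero1l, Atf4, Ppp1r15a, Trib3, Ddit3 and Xbp1 were among 18 genes with none of the 4 motifs in the searched window. The bases just after the listed start were checked against GENCODE transcripts. They were not found for Derl3, Dnajc3, Herpud1, Pdia4, Trib3, Xbp1 and an entry of Creb3l4. Matches, distances and absences for these genes rest on the RefSeq start alone.

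The 5 genes of ER-associated degradation, which pulls misfolded proteins out of the ER for destruction, did not pass. Herpud1, an organiser of the retrotranslocation complex, read 99.8 and 122 CPM in WT and 117 and 126 CPM in KO. The mannosidase-like Edem1 read 166 and 185 CPM in WT and 160.1 and 163 CPM in KO, lower in both KO libraries (edgeR adjusted p = 0.372). The ubiquitin ligase Syvn1 read 91.2 and 95.2 CPM in WT and 100.4 and 105 CPM in KO, higher in both (edgeR adjusted p = 0.248). Sel1l, the adaptor of Syvn1, split the KO libraries, at 142 and 153 CPM in WT and 154 and 117 CPM in KO. Derl3 rested on 21 and 5 counts in WT and 32 and 25 in KO, and its log2 fold change of 0.88 had an SE of 0.835. No gene of this group had an unadjusted p under 0.05 by edgeR, beside 29.9% of all tested genes. DESeq2 and limma-voom each called 0, beside 21.8% and 16.7% of all tested genes.

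Derl3 is also a marker of plasma cells, which are rich in these folding genes. Of 11 such markers, 2 (Mzb1 and Tnfrsf17) had no count in any library, and 1, Prdm1, rose 3.04-fold, from 5.22 and 5.69 CPM to 15.9 and 17.2 CPM. Without Prdm1 and Sdc1, which epithelium also expresses, the markers summed to 5.40 and 4.86 CPM in WT against 8.48 and 9.22 CPM in KO, and their part was not tested.

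Between genes, levels are compared as CPM per kilobase of exon, averaged over the 4 libraries. P4hb (319) and Calr (315) led the 35 genes, each above 99.3% of tested genes, followed by Pdia3 (219.6), Hsp90b1 (153), Hspa5 (128) and Creb3l1 (126). The first 2 cannot be ordered, since Calr was higher in WT (319 against 308) and P4hb in KO (330.5 against 312). Creb3l1 was level with Hsp90b1 in WT (153 and 150.0) and well below it in KO (98.2 and 155). Xbp1 (82.8), Canx (79.5) and Atf4 (71.2) came next, and Ern2 (44.8) stood above Ern1 (13.1), Eif2ak3 (12.5) and Atf6 (8.64). At the bottom were Ddit3 (5.58), Ppp1r15a (4.05), Chac1 (3.43), Trib3 (0.428) and Derl3 (0.175). Of the 4 genes that rose, Chac1 and Ppp1r15a were thus among the 5 lowest, while Atf4 was among the 10 highest.

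**Figure D3:**
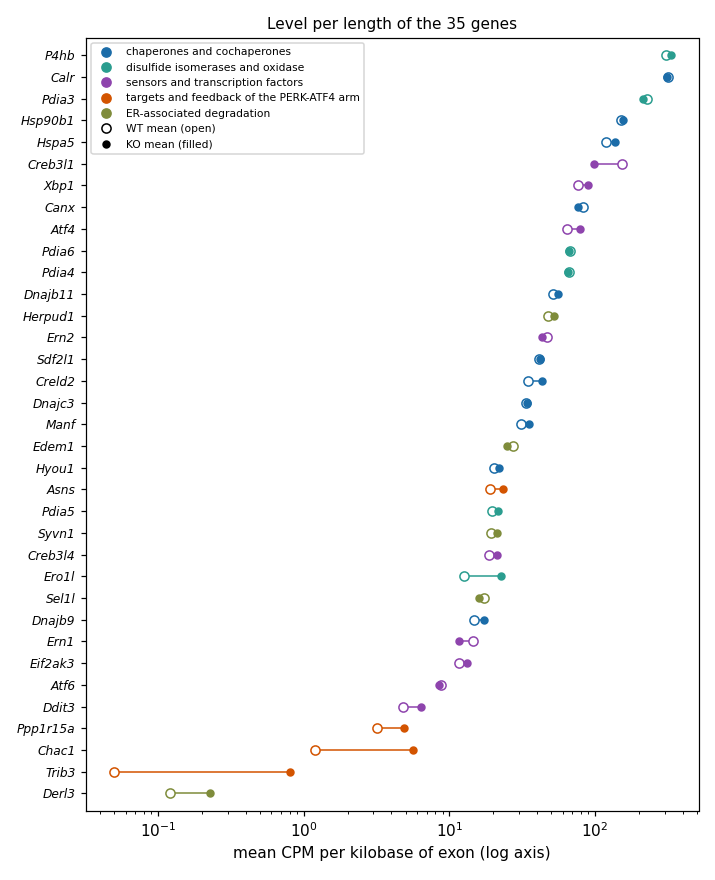
CPM per kilobase of exon of the 35 genes in WT and Smad4 KO (log axis), ordered by the mean over the 4 libraries. The chaperones and isomerases fill most of the upper end and Chac1, Trib3 and Derl3 the lower end, and the largest gaps between genotypes are those of Trib3 and Chac1.

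Other genes reported to be driven by ATF4, mostly for amino acid supply, were read from a list of 27, of which 26 were tested and Fgf21 had no count. Of these, 12 rose (46.2%) and 2 fell, beside 8.83% and 6.40% of all tested genes, and 12 did not pass. The median log2 fold change was 0.48. The list was chosen with earlier results of these data known, so its share of risen genes is a description and no test. The count of risen genes was 9 without WT replicate 1, 12 without WT replicate 3, 6 without KO replicate 1 and 7 without KO replicate 2. The 2 falls, of Gpt2 (1.63-fold) and Gdf15 (2.05-fold), were lost without WT replicate 3 or either KO replicate.

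Calls that held in each fit with 1 library left out were the 5 of Stc2, Slc7a11, Slc7a5, Vldlr and Psat1. Stc2, a secreted glycoprotein induced by ER stress, read 29.97 and 31.2 CPM in WT and 80.7 and 78.8 CPM in KO; it rose 2.61-fold (edgeR adjusted p = 0.000639). Slc7a11, the cystine importer that feeds glutathione synthesis, read 4.27 and 3.85 CPM in WT and 12.8 and 14.7 CPM in KO; it rose 3.37-fold (edgeR adjusted p = 0.00261). Slc7a5, the large neutral amino acid carrier, read 25.9 and 28.0 CPM in WT and 52.3 and 53.8 CPM in KO; it rose 1.97-fold (edgeR adjusted p = 0.00280). For each of these genes the KO libraries lay close together and far above the WT libraries. Vldlr, a lipoprotein receptor, rose 2.08-fold from 15.2 and 15.6 CPM to 32.7 and 31.3 CPM (edgeR adjusted p = 0.00286). Psat1, of serine synthesis, rose 2.12-fold from 17.4 and 16.0 CPM to 39.7 and 31.0 CPM (edgeR adjusted p = 0.00977).

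The other 7 risen genes were the stress transcription factors Atf3 (1.76-fold) and Nupr1 (2.75-fold), the folate enzymes Shmt2 and Mthfd2 (1.45-fold each), the amino acid carriers Slc7a1 (1.31-fold) and Slc6a9 (1.55-fold), and Slc3a2 (1.53-fold), the heavy chain that pairs with Slc7a5 and Slc7a11. Nupr1 was uneven in WT, at 98.9 and 62.5 CPM, against 201 and 242 CPM in KO. Atf3, Nupr1 and Atf4 are also expressed by immune cells, whose markers were higher in the KO libraries, and the part of those cells was not tested.

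**Figure D4:**
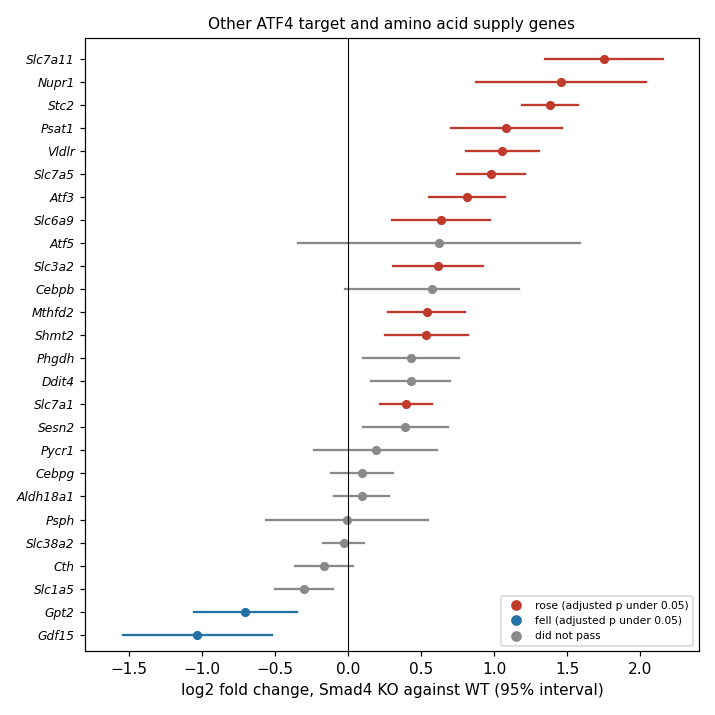
Log2 fold change of the 26 tested ATF4 target and amino acid supply genes, Smad4 KO against WT, with 95% confidence intervals. Of these, 12 rose and 2 fell, beside 8.83% and 6.40% of all tested genes, and Slc7a11 and Nupr1 lie farthest to the right.

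The aminoacyl-tRNA synthetases of the cytosol, many of which are ATF4 targets, had 1 gene of 12 risen and 1 fallen, beside 8.83% and 6.40% of all tested genes. Both KO libraries lay above both WT libraries for 6 of the 12 and below them for 2, beside 31.0% and 28.4% of all tested genes. DESeq2 called 3 risen and 1 fallen, beside 12.1% and 9.62% of all tested genes. Wars, for tryptophan, went from 204 and 244 CPM to 402 and 387 CPM (1.76-fold, edgeR adjusted p = 0.00603). Yars, for tyrosine, went the other way, from 101 and 106 CPM to 80.5 and 82.6 CPM (1.27-fold lower, edgeR adjusted p = 0.0287, up to 0.209 with 1 library left out). Wars is also a well-known interferon-γ target. None of the 10 genes of eIF2 kinases, phosphatase and guanine exchange passed by edgeR, with 3 at an unadjusted p under 0.05 (29.9% of all tested genes), 2 called by DESeq2 (21.8%) and 0 by limma-voom (16.7%).

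Of 15 genes for ER stress sensing, the CREB3 family and ATF6 processing, 1 rose and 1 fell, near the 8.83% and 6.40% of all tested genes. Bcl2l11 (BIM), a killer of the Bcl2 family, rose 1.83-fold from 11.1 and 8.33 CPM to 17.6 and 18.0 CPM (edgeR adjusted p = 0.0267, up to 0.127 when either KO replicate was left out, which ended the call). Map3k5 (ASK1), a stress kinase downstream of IRE1, fell 1.40-fold from 50.7 and 56.0 CPM to 38.2 and 37.8 CPM (edgeR adjusted p = 0.0235), and leaving out WT replicate 3 or either KO replicate ended the call (up to 0.154). Creb3 (43.3 and 38.4 CPM in WT, then 45.9 and 44.4 CPM in KO) and Creb3l2 (15.7 and 19.4 CPM, then 17.7 and 20.9 CPM), relatives of Creb3l1, did not pass.

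Among 18 tested genes of other disulfide isomerases and ER oxidation, 4 rose and 1 fell, beside 8.83% and 6.40% of all tested genes. P4ha1 and P4ha2, catalytic subunits of collagen prolyl hydroxylase, rose 1.79-fold (19.9 and 16.5 CPM to 32.7 and 32.7 CPM, edgeR adjusted p = 0.0122) and 2.28-fold (3.42 and 2.96 CPM to 6.75 and 7.84 CPM, edgeR adjusted p = 0.0174). P4hb, their shared partner, did not pass, as given above. Qsox1, a secreted sulfhydryl oxidase, rose 1.27-fold (edgeR adjusted p = 0.0230), and Dnajc10, an ER reductase, rose 1.22-fold (edgeR adjusted p = 0.0414). Tmx4, a membrane thioredoxin, fell 1.69-fold (edgeR adjusted p = 0.0416). Each of these 5 calls was lost in at least 1 fit that left out a library. The first 3 were lost without either KO replicate (up to 0.0751 for P4ha1, 0.116 for P4ha2 and 0.183 for Qsox1). Dnajc10 was also lost with DESeq2 size factors (edgeR adjusted p = 0.0501) and with library totals (0.0769). The second ERO1 gene, Ero1lb, read 11.7 and 13.4 CPM in WT and 10.3 and 10.1 CPM in KO, which missed the threshold (edgeR adjusted p = 0.218). Agr2, the isomerase needed to make Muc2 protein, read 826 and 804 CPM in WT and 729 and 687 CPM in KO, short of the threshold (edgeR adjusted p = 0.0628), while Muc2 itself rose.

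Of 4 further lists of the early secretory pathway, 3 held no gene past the edgeR test. The shares of all tested genes at an unadjusted p under 0.05 (29.9%) and called by DESeq2 (21.8%) or limma-voom (16.7%) are the background of the counts that follow. Among 28 genes of glycoprotein folding and degradation, 5 had an unadjusted p under 0.05 and DESeq2 and limma-voom called 0. Among 24 genes of the translocon and signal peptide removal, 5 had an unadjusted p under 0.05, DESeq2 called 2 risen and 1 fallen, and limma-voom called 0. Sec61a1, the channel itself, was 1.16-fold higher in KO, at 369 and 382 CPM against 423 and 446 CPM, short of the threshold (edgeR adjusted p = 0.0690). Among 21 genes of COPII vesicles, which carry cargo out of the ER, 4 had an unadjusted p under 0.05, DESeq2 called 1 fallen and limma-voom called 0. Of 12 genes of N-glycan transfer, 1 fell, beside 6.40% of all tested genes. That gene, Ddost, a subunit of oligosaccharyltransferase, went from 392 and 385 CPM to 299 and 308 CPM (1.28-fold, edgeR adjusted p = 0.0122). Its call was lost without either KO replicate.

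**Figure D5:**
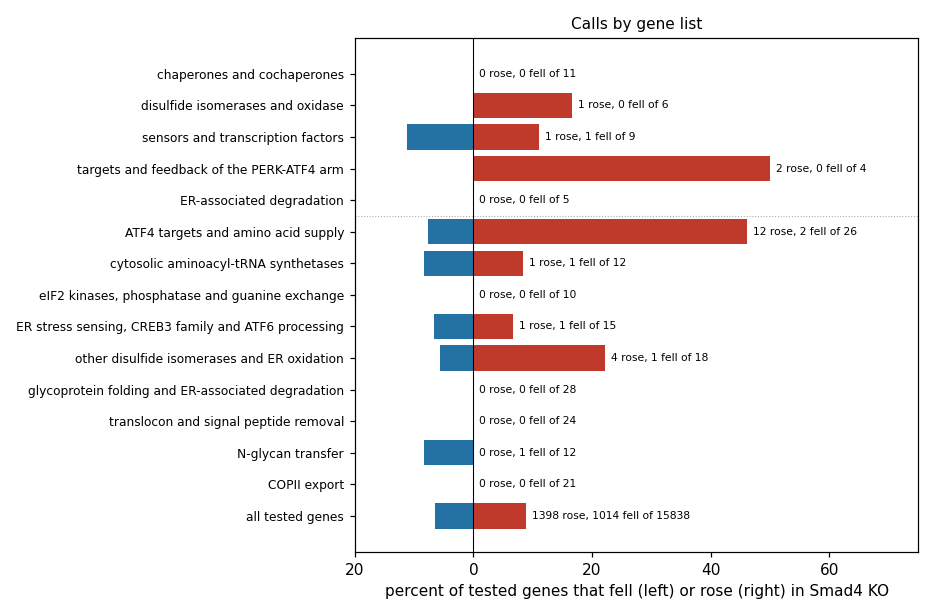
Percent of tested genes in each list that rose or fell in Smad4 KO by edgeR at an adjusted p under 0.05, to the right and left of 0, with all 15838 tested genes for comparison. The PERK-ATF4 targets (2 of 4 genes) and the ATF4 target list (12 of 26) show the highest percents risen. Of the former 2 calls, that of Ppp1r15a was lost when any 1 library was left out. The chaperone, degradation, translocon and COPII lists show no call.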

How the data were processed

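The table that the authors deposited holds whole-number counts for 31227 Ensembl genes in 4 libraries. HISAT2 2.1.0, StringTie 1.3.3b, SAMtools 1.9 and FastQC (0.19.7 as stated) are named, with GRCm38 (mm10), per the submitters' processing notes. The sources used here do not say which tool counted, whether strand was kept or how reads matching several genes were treated. GENCODE M21 named 31130 IDs; the 97 without a name took up to 0.0405% of the counts.

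Counts were normalized by TMM, filtered by filterByExpr (15838 of 19618 genes with a count) and tested by edgeR 4.0.16 (R 4.3.3) with the quasi-likelihood F test on genotype, with Benjamini-Hochberg adjustment over all tested genes and a threshold of 0.05. The biological coefficient of variation was 0.196. CPM use TMM-scaled library sizes, and exon lengths are those of GENCODE. Intervals are 95% and cover the spread between libraries as fitted, and limits from a count of 0 use 3 counts.

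The members and lists were chosen with earlier results of these data known. The named genes were all members, Smad4, up to 4 genes with the smallest p from each pathway list, and the most abundant and the 2 with the smallest p from each marker list. The other genes with a call in a list, Creb3, Creb3l2, Agr2 and Ero1lb were named after their values were seen. Alternatives were DESeq2 size factors, library totals, upper-quartile scaling, no filter, 1 CPM in 2 libraries, limma-voom (limma 3.58.1), the Wald test of DESeq2 1.42.0 and leaving out each library, 11 in all. With 1 library left in a genotype, the fit assumes that it varies like the other genotype.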

Additional observations from a re-analysis of the deposited data

How the results depend on the processing

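No paired analysis was possible because the genotypes share only replicate number 1. With 1 library left out, 975 to 2573 genes changed (547 to 1504 rose and 425 to 1069 fell). Of the 35 genes 2 to 5 rose and 1 to 2 fell, and of the ATF4 target list 6 to 12 rose and 0 to 2 fell. Each of these fits has fewer samples. DESeq2 called 1922 risen (12.1%) and 1524 fallen genes (9.62%) in all and 7 risen of the 35. There were 2 fallen of the 35 with library totals, with no filter, with DESeq2 and with limma-voom, the added gene being Ern1. The cause was not tested. Log2 fold changes near 0 changed sign. With library totals Hsp90b1 went to -0.0022, Dnajc3 to -0.026 and Sdf2l1 to -0.046, and Sdf2l1 was -0.0019 with DESeq2 size factors and -0.0023 with DESeq2. With 1 library left out, Hsp90b1 ranged from -0.038 to 0.13, Calr from -0.10 to 0.024, Canx from -0.21 to 0.016, Dnajb11 from -0.025 to 0.26, Dnajc3 from -0.034 to 0.090, Sdf2l1 from -0.033 to 0.036, Manf from -0.015 to 0.40, Pdia4 from -0.057 to 4.5e-05, Pdia6 from -0.16 to 0.14, Herpud1 from -0.016 to 0.28 and Sel1l from -0.32 to 0.066. None of these genes passed the test in any fit. Chac1, Ero1l and Creb3l1 passed in all 11 alternatives, with a highest adjusted p of 0.0173, 0.0241 and 0.0317. The number of libraries, 2 per genotype, limits what could be detected, and the intervals given show the precision.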

Other observations

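A list of 12 hypoxia response genes was chosen after their values were seen. Of the 12, 9 rose and 0 fell, beside 8.83% and 6.40% of all tested genes. Because the choice followed the values, these counts describe the chosen genes only and are no test of the pathway. The calls of Vegfa and Adm were lost in at least 1 fit that left out a library. Hk2, hexokinase of the first step of glycolysis, went from 447 and 449 CPM in WT to 973 and 985 CPM in KO (2.18-fold, edgeR adjusted p = 0.000289). Pfkfb3, which makes an activator of phosphofructokinase, went from 12.9 and 16.0 CPM to 84.9 and 75.1 CPM (5.56-fold, edgeR adjusted p = 0.000670). Ndrg1 rose 2.08-fold and Egln3, an oxygen-sensing prolyl hydroxylase, 2.18-fold, while the glucose carrier Slc2a1 rose 1.80-fold and Vegfa, the vessel growth factor, 1.35-fold.

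Chac1 breaks glutathione down and Slc7a11 brings in cystine for its synthesis, and both were higher in the KO libraries. Of 8 genes of glutathione synthesis and turnover, Slc7a11 rose and 1 fell by edgeR, beside 8.83% and 6.40% of all tested genes. This list was also read after its values were seen, so its counts are no test either. The fallen gene was Oplah, which returns 5-oxoproline to glutamate, at 30.6 and 34.6 CPM in WT and 20.7 and 22.1 CPM in KO (1.52-fold, edgeR adjusted p = 0.0235), and its call was lost without WT replicate 3 (0.0565), KO replicate 1 (0.146) or KO replicate 2 (0.111).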
